A study of Mus musculus with 3 samples.

Results

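Contacts made by promoters around Gata1 on mouse chromosome X were described from nuclear-titrated (NuTi) Capture-C, in which chromatin is digested with DpnII, fragments lying close together are ligated, and probes enrich the ligation products of chosen promoter fragments, called viewpoints. The promoters are those of Ccdc22, Gpkow, Wdr45, Tfe3, Gripap1, Otud5, Pqbp1, Hdac6, Suv39h1 and Wdr13. Their viewpoints were taken from the study's viewpoint list by gene name, which gave 11 of its 7197 viewpoints, since Otud5 was targeted by a pair of viewpoints that lie 51 bp apart at a single promoter, and the viewpoint of Pqbp1 is shared with Timm17b. All 3 libraries form 1 group of ter119+ erythroid cells, from the spleens of F1 hybrid C57BL/6 and CBA/J mice that had received 3 doses of phenylhydrazine 12 h apart and were killed on day 5. The labels give each dose as 40 mg per g body weight. Phenylhydrazine causes anaemia, so that the spleen fills with erythroid cells, and the data hold no untreated mice and no other cell type. Capture-C gives no expression level, so the cell label could not be set against marker genes. Each value below is therefore set against the count expected from distance, and p-values set a count against the spread between pairs of viewpoint and fragment, window or gene at like distances. The labels do not say that the libraries came from separate animals.

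Gata1 encodes the GATA-binding transcription factor that erythroid cells require to mature, and Was encodes the actin regulator missing in Wiskott-Aldrich syndrome. Neither was a viewpoint, so both were read as places contacted by the promoters around them. Promoters of a gene-dense region often contact each other and shared regulatory elements, and a contact seen by Capture-C says that a pair of fragments was close when ligated and not what the contact does. DpnII cuts often, so fragments are short and genes are covered by many fragments.

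The 11 viewpoints spanned chrX:7182460-7710130 (mm9). Distances below are from the start of the Gata1-001 transcript at position 7545036, on the minus strand, and left means lower coordinates. On the left lay Ccdc22 at −362.4 kb, which encodes a protein of endosomal sorting, Gpkow at −270.9 kb, which encodes a spliceosome protein, and Wdr45 at −245.8 kb, which encodes a β-propeller protein of autophagy. Tfe3 at −205.2 kb encodes a transcription factor and is named Tcfe3 in the GENCODE annotation used. Gripap1 at −178.1 kb encodes a partner of the synaptic protein GRIP1, and Otud5, with viewpoints at −126.6 and −125.6 kb (a and b), encodes a deubiquitinase. Pqbp1 at −68.5 kb encodes a polyglutamine-binding protein of splicing, and Hdac6 at −20.0 kb encodes a largely cytoplasmic deacetylase. On the right lay Suv39h1 at 106.9 kb, which encodes a histone H3 lysine 9 methyltransferase, and Wdr13 at 164.9 kb, which encodes a WD-repeat protein.

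Depth differed widely between these viewpoints, from 8160 ligation events at Gripap1 and 13780 at Tfe3 to 93847 at Pqbp1/Timm17b, summed over the libraries. Libraries b and c were deeper than library a at each of the 11 viewpoints. Over 10 kb windows of these viewpoints, b and c differed by 1.06 in chi-square per degree of freedom, whereas a differed from b by 1.35 and from c by 1.35. The chi-square test gave p = 0.0422 for b and c, 3.89e-18 for a and b and 2.53e-18 for a and c. The methods describe 3 independent libraries, and this closeness does not show that b and c are one sample. They were averaged and counted as 1 sample by choice, so each mean ± SD has n = 2, and library a weighs as much in it as b and c together. With the 3 libraries counted separately, an alternative chosen after the data were seen, Wdr45 stayed first and Hdac6 last in the order of means at Gata1, and Wdr13 moved from place 5 to 7. The SD over 3 libraries was the larger one at 6 of 11 viewpoints at Gata1 and at 6 of 11 at Was, so the SD of 2 samples can understate the spread between libraries. All intervals cover counting error only.

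A stretch of sequence that occurs at both ends of the region has to be shown first, because several of the values below rest on it. Its left copy lay at chrX:7290996-7291821 (mm9), upstream of Wdr45, and held the start of the transcript Gm14720. Its right copy lay at chrX:7673313-7674136, upstream of Was and just before the transcript Gm6787. Of 824 aligned bases, 811 were identical, or 98.2% when the 2 gap bases are counted as well. The DpnII fragment in the middle of each copy was still more alike: over chrX:7291104-7291605 (502 bp) and chrX:7673421-7673921 (501 bp), 500 bases were identical (99.6%). The pair differed by C461T, counted from 1 at the first base of the left fragment, and by 1 extra G in the left fragment. The last 240 bases of the left fragment and the last 239 of the right are shown on the plus strand of mm9, because they hold both differences, which are in capitals.
left copy, chrX:7291366-7291605: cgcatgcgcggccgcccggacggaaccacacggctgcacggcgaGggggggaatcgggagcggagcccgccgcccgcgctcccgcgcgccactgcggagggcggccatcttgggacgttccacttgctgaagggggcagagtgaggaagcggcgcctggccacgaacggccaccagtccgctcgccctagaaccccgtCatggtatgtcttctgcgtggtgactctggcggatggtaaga
right copy, chrX:7673683-7673921: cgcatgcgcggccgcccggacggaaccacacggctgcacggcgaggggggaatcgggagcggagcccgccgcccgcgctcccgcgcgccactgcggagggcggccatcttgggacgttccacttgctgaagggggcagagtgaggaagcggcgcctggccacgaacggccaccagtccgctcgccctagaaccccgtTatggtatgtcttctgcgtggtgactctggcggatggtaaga
The right fragment lay 5.80 kb from the start of Was, and these fragments were 382.3 kb apart with Gata1 between them. Of the words of 30 bases in the left fragment, 88.6% also occurred elsewhere on chromosome X, and 88.8% of those in the right fragment did.

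The middle fragments of the 2 copies received similar numbers of events from each viewpoint, whatever its distance. From Wdr45, 7.86 kb from the left copy and 374.5 kb from the right, the left fragment had 28, 37 and 47 events in libraries a, b and c, and the right fragment 24, 28 and 34. That placed 56.6% of the events at the left copy (exact binomial 95% interval 49.4 to 63.6%), where distance alone gave an expectation of 95.5%. From Suv39h1, on the other side, the left fragment at 360.5 kb had 19, 16 and 18 events and the right fragment at 21.8 kb had 17, 19 and 22. Its left share was 47.7% (38.2 to 57.4%), against 8.88% expected. Gpkow had 86 events at the left copy and 77 at the right, and Wdr13 had 33 and 36. Summed over the 11 viewpoints, 430 events fell on the left copy and 402 on the right, a left share of 51.7% (48.2 to 55.1%). Each of the 11 intervals held 50%, and so did those of the 4 other viewpoints of the region, Ppp1r3f, Rbm3/Rbm3os, Tbc1d25 and Ftsj1. Expected left shares over these 15 viewpoints ran from 8.88 to 95.5%. The intervals of Pqbp1/Timm17b, Hdac6 and Otud5 viewpoint a also held their expected shares, 52.8, 42.1 and 65.6%. Counts of these viewpoints therefore cannot tell an equal split from the distance expectation. With the fragment on either side included, 3 at each copy, counts leaned towards the nearer copy except at Gripap1, which had 10 at each: Wdr45 had 266 events on the left and 172 on the right, Gpkow 209 and 132, Suv39h1 101 and 139, Wdr13 46 and 77, and Hdac6 14 and 25. The outer fragments run past the repeated stretch, and 13.2 to 76.5% of their words occurred elsewhere on chromosome X. How reads that match both copies were placed is not given in the sources used here, and its part in these counts was not tested.

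**Figure D1:**
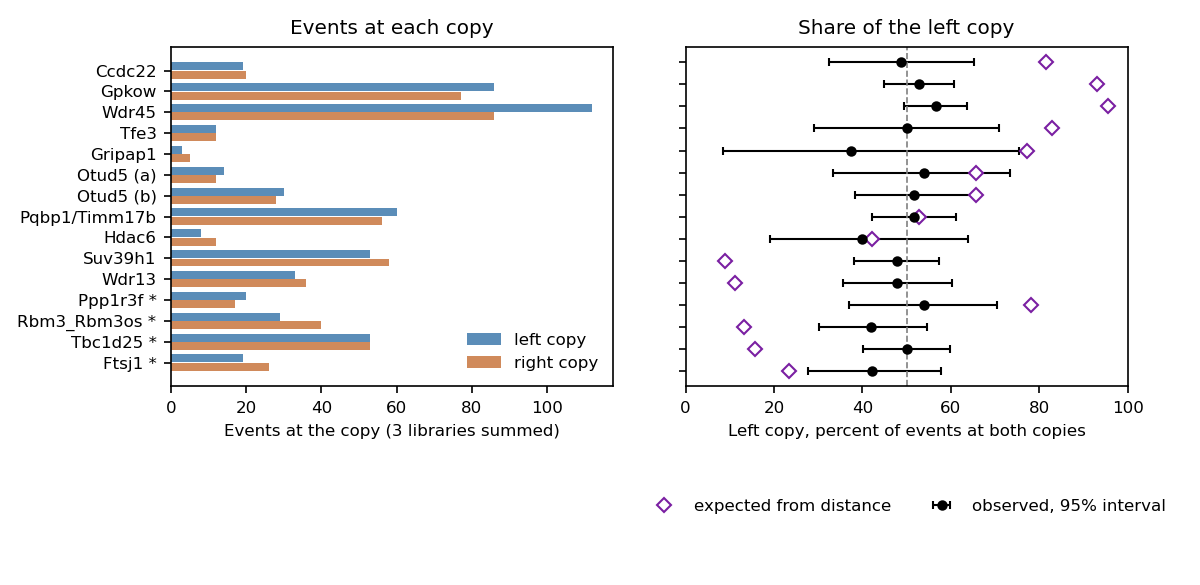
Events at the middle fragment of each copy of the repeated stretch, for 11 viewpoints and, marked with asterisks, 4 others of the region. Left panel: events summed over 3 libraries (bars, from 0). Right panel: the left copy as percent of the events at both (circles, bars are exact binomial 95% intervals) and the percent expected from distance (diamonds). The observed shares sit around 50% while the expected shares run from 8.88 to 95.5%.

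Gata1 was contacted above expectation by all 11 viewpoints, by moderate amounts, and no single contact passed the test. The values are observed over expected events over the annotated gene, chrX:7536386-7555197, with 2 kb on each side. Wdr45 had the highest value, with 130, 218 and 188 events in libraries a, b and c, which were 1.99, 2.21 and 1.88 times the expectation (mean 2.02 ± 0.0338 SD, n = 2, or ± 0.167 over 3 libraries). Gpkow had 105, 186 and 203 events and a ratio of 1.68 ± 0.0118 (SD, n = 2, or ± 0.0718 over 3 libraries). Both exceeded 1 in each library, and the libraries of Wdr45 lay above those of Gpkow.

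The other viewpoints to the left of Gata1 had similar ratios. The Otud5 viewpoints had 283 events (a) and 713 events (b), and their ratios were 1.75 ± 0.205 and 1.66 ± 0.0493 (SD, n = 2). Tfe3 had 29, 55 and 55 events, with ratios of 1.30, 1.76 and 1.81, and Gripap1 had 18, 37 and 33 events, with ratios of 1.28, 1.83 and 1.71. These last viewpoints were the shallowest, and library a lay below the others at both.

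Ccdc22, the farthest on the left at 363.1 kb, had 29, 66 and 57 events at Gata1 and a ratio of 1.49 ± 0.0498 (SD, n = 2, or ± 0.115 over 3 libraries). Pqbp1/Timm17b had 1816 events, with a ratio of 1.42 ± 0.127, and Hdac6, the neighbour of Gata1 at 20.8 kb, had 1168, with a ratio of 1.35 ± 0.0237 (SD, n = 2), the lowest of the 11. On the right, Suv39h1 had 185, 271 and 285 events and a ratio of 1.48 ± 0.0334, and Wdr13 had 84, 112 and 126 and a ratio of 1.62 ± 0.315 (SD, n = 2). With the libraries summed, the ratio ran from 1.35 to 2.03, and each exact Poisson 95% interval lay above 1. In the order of the means, Wdr45 came first and Otud5 viewpoint a next, and the libraries of each viewpoint overlapped those of its neighbour in the order, down to Hdac6.

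In the negative binomial test over all gene pairs of the table, adjusted p for Gata1 ran from 0.181 (Wdr45) to 0.675 (Hdac6). Gata1 was therefore called from 0 of 11 viewpoints, where 2.77% of all gene pairs were called. At an unadjusted p under 0.05, 5 of 11 passed, where 13.9% of all gene pairs and 10.7% of those of the 11 viewpoints did. Those 5 include both Otud5 viewpoints, which lie at a single promoter. All 11 viewpoints read the same interval in the same libraries, so they are not independent. Such ratios were not rare elsewhere: among gene pairs 20 to 500 kb apart, 19.9% of all tested viewpoints' pairs, 16.2% of those of chromosome X and 17.0% of those of the 11 viewpoints were at or above the median the 11 viewpoints had at Gata1. The median over all gene pairs in that range was 1.03, over those of chromosome X 1.04, and over those of the 11 viewpoints 1.14. Of the 48 fragments of the Gata1 interval, 0 had 50% or more of their words of 30 bases found elsewhere on chromosome X. This count leaves out copies on other chromosomes and fragments with a smaller share, so it cannot show that repeated sequence is rare there.

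Upstream of the Gata1-001 start, a pair of stretches was read in the same way. The stretch from 1 to 10 kb upstream lies inside the annotated interval of the gene and supplied 15 of its 47 tested fragments, so it is no separate place. There the summed ratio ran from 1.27 (Hdac6) to 2.60 (Wdr45), with a median of 1.81. From 20 to 30 kb upstream it ran from 1.36 to 2.12, the highest at Gpkow, with a median of 1.73. All 11 viewpoints were above 1 in each library in both stretches. The 4 other viewpoints of the region had 1.59 to 2.15 over Gata1 itself. They had 1.48 to 2.77 from 1 to 10 kb upstream and 1.34 to 1.65 from 20 to 30 kb upstream. In either upstream stretch, 3 of these 4 were above 1 in each library.

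Was, over chrX:7658579-7667624 with 2 kb on each side, showed a wider range. Ccdc22 had 25, 39 and 43 events there, with ratios of 1.91, 1.45 and 1.61, and Gpkow had 58, 125 and 105, with ratios of 1.65, 1.90 and 1.59. Wdr45 (1.58 ± 0.135), Tfe3 (1.64 ± 0.186) and Otud5 viewpoint b (1.53 ± 0.107, SD, n = 2) were near them, and all 3 libraries were above 1 at each of these viewpoints and at Pqbp1/Timm17b (1.39 ± 0.0337). Gripap1 (1.08 ± 0.217) and Otud5 viewpoint a (1.27 ± 0.154) were above 1 on average, with 1 library each below it.

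The viewpoints nearest to Was had the lowest ratios. Suv39h1, 11.2 kb away, had 426, 577 and 614 events where distance gave an expectation of 2459 in all, a ratio of 0.650 ± 0.0243 (SD, n = 2). Hdac6 (145 events) and Wdr13 (506 events) had summed ratios of 0.982 and 0.989, and means of 1.02 ± 0.108 and 1.04 ± 0.135 (SD, n = 2), so their side of expectation depended on how libraries were combined. So 8 of 11 viewpoints were above expectation at Was with the libraries summed, 6 of them in each library, and the call was passed by 0 of 11, with adjusted p from 0.353 to 1. Of all gene pairs in the table, 2.77% were called. At an unadjusted p under 0.05 only Gpkow passed, where 13.9% of all gene pairs and 10.7% of those of the 11 viewpoints did.

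**Figure D2:**
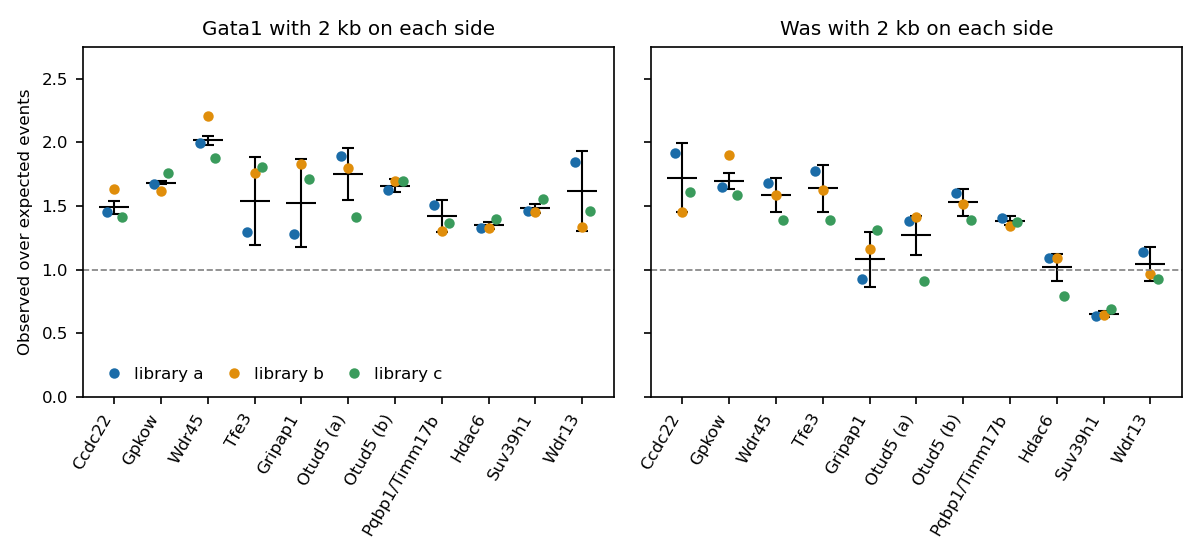
Observed over expected events at Gata1 (left) and Was (right), each with 2 kb on each side, for the 11 viewpoints in chromosome order. Points are libraries a, b and c, bars are the mean ± SD of 2 samples (library a, and the mean of b and c), and the dashed line marks the expectation. At Gata1 all points lie above 1, and at Was Suv39h1 lies below 1 in each library.

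Of all tested pairs of viewpoint and fragment in the table, 0.0034% were called, meaning that the adjusted p was under 0.05 and that the count exceeded expectation in each library. The 11 viewpoints had 5 called fragments among 50230 pairs (0.00995%), and all 5 overlapped the repeated stretch. Wdr45 had 86 events at the right fragment, 22.5 times the expectation, and Gpkow had 77 (20, 30 and 27), 18.7 times. Wdr45 also reached the next fragment, chrX:7673922-7674480, with 11, 15 and 23 events, 12.8 times. From the other side, Suv39h1 had 53 events at the left fragment, 15.8 times, and Wdr13 had 33 (8, 13 and 12), 17.2 times. By the negative binomial test, adjusted p was 1.57e-06 for the first, 0.000137 for Gpkow, 0.029 for the next fragment, 0.00259 for Suv39h1 and 0.00451 for Wdr13. The fragments within 50 kb of these places had summed ratios of 1.80 to 2.10 from the same viewpoints. The fragments on either side of the middle one, which lie partly outside the stretch, had ratios of 9.70 and 12.8 from Wdr45, 8.03 and 5.35 from Gpkow, and 5.05 and 9.21 from Suv39h1. From Wdr13 they had ratios of 1.57 and 5.22. Of the fragment reached at 12.8 times by Wdr45, 13.2% of the words occurred elsewhere on chromosome X. Its first bases lie inside the repeated stretch, which ends at chrX:7674136. Leaving out fragments with 50% or more such words could not remove it, so its call under that setting says nothing about repeated sequence. With no counts left out of the dispersion, only the right fragment from Wdr45 stayed called, and its second fragment was also lost without library c.

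Over 5 kb windows, 0.119% of all tested pairs were called, and the 11 viewpoints had 3 among 4353 (0.0689%). Gpkow (167 events, ratio 5.08) and Wdr45 (225 events, ratio 7.37) reached the window of the right copy, and Suv39h1 (184 events, ratio 4.97) that of the left, with adjusted p of 0.0353, 0.000308 and 0.0317 by the negative binomial test. The 3 fragments that overlap each copy held 132 of the 167, 172 of the 225 and 101 of the 184 events. The window of Gpkow was lost without library b and that of Suv39h1 without library c, and both were lost when the expectation included fragment length or when no counts were left out of the dispersion. Leaving out the fragments that overlap the repeated stretch, an alternative chosen after the data were seen, removes all 5 called fragments by construction. Of the 5 kb windows, 0 were then called by the same negative binomial test. At an unadjusted p under 0.05, 1753 of the 50164 remaining fragment pairs passed (3.49%, against 3.27% over all viewpoints), and 192 of the 4353 window pairs (4.41%, against 5.42%).

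Contacts with annotated genes were called for 13 of the 947 gene pairs of the 11 viewpoints, or 1.37%, where 2.77% of all gene pairs in the table were called. The 13 pairs involved 7 viewpoints and 7 genes. Genes far to the right of Gata1 took most of them from viewpoints on the left, where most of the 11 viewpoints lie. Slc38a5, which encodes an amino acid transporter, was called from Ccdc22 at 670.1 kb with 19, 30 and 32 events, a ratio of 3.10. It was also called from Gpkow with 46, 78 and 79 events, a ratio of 3.18. From Suv39h1, on its own side, it had 77, 111 and 95 events and a ratio of 2.03. These had adjusted p of 0.0175, 0.0168 and 0.0234 by the negative binomial test. All 11 viewpoints were above expectation at Slc38a5 with the libraries summed, from 1.17 (Tfe3) to 3.18. Each of these 3 calls was kept with any single library left out, those of Gpkow and Suv39h1 were lost when the expectation included fragment length, and all 3 were lost with no counts left out of the dispersion.

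Wdr13, itself one of the promoters targeted, was called as a gene from Gpkow (71, 92 and 100 events, ratio 2.71) and from Wdr45 (57, 91 and 92 events, ratio 2.82), with negative binomial adjusted p of 0.0349 and 0.0258. In the reverse direction, the viewpoint of Wdr13 called Wdr45 with 19, 50 and 45 events (ratio 2.71, negative binomial adjusted p = 0.0439). Read at the fragments beside the other viewpoint, this pair had a ratio of 3.17 from Wdr45 and of 1.22, from 7 events, from Wdr13. The call of Wdr45 from Wdr13 was lost without library b or c, with the gene body alone and without fragments with shared words. The call of Wdr13 from Gpkow was lost without library a, both calls of the Wdr13 gene when the expectation included fragment length, and all 3 with no counts left out of the dispersion. Nearer to it, the ratio at the Wdr13 gene was 1.48 from Hdac6 and 1.30 from Suv39h1.

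Rbm3, which encodes a cold-inducible RNA-binding protein, was called from Tfe3 with 14, 16 and 11 events, a ratio of 3.00. It was also called from Otud5 viewpoint a with 17, 22 and 24 events, a ratio of 2.70. Viewpoint b of the same promoter had 26, 47 and 48 events there, a ratio of 2.07, and missed the call. Gpkow had the highest ratio at Rbm3, 3.21, and also missed it. In the negative binomial test, adjusted p at Rbm3 was 0.0255 for Tfe3, 0.0276 and 0.124 for Otud5 viewpoints a and b, and 0.0609 for Gpkow. Ftsj1, which encodes a tRNA methyltransferase, was called from Ccdc22 only, with 19, 55 and 59 events (ratio 2.73, negative binomial adjusted p = 0.0381). These calls were sensitive to single libraries: Rbm3 was lost from Tfe3 without a or b and from Otud5 viewpoint a without c, and Ftsj1 without b or c. Both calls of Rbm3 were also lost with the gene body alone and with fragment length in the expectation, and all 3 calls with no counts left out of the dispersion.

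The remaining 4 called pairs were with the transcripts at the repeated stretch. Gm6787 was called from Gpkow (ratio 2.69) and Wdr45 (3.32), and Gm14720 from Suv39h1 (3.65) and Wdr13 (3.00). Gm14720 runs to chrX:7299226, past the start of the Wdr45 gene at chrX:7299099 and into the Wdr45 viewpoint. With 2 kb on each side both intervals overlap, so the calls of Gm14720 and of Wdr45 from Wdr13 can count the same events. With the repeated stretch left out, 3 of the 4 pairs with Gm6787 or Gm14720 were no longer called, and Suv39h1 kept Gm14720 with a ratio of 2.76. The ratio was then 2.30 for Gm14720 from Wdr13 and 2.09 for Gm6787 from Wdr45. By the negative binomial test, adjusted p without the stretch was 0.0163, 0.124 and 0.126 for these 3 pairs. The other 9 pairs, all with the protein-coding genes named above, were called in both settings. Both calls of Gm6787 were lost with the gene body alone, and that from Gpkow also without library b. The calls of Gm6787 from Gpkow and of Gm14720 from Wdr13 were lost with no counts left out of the dispersion and without fragments with shared words. Of the 39 protein-coding genes overlapping 7.0 to 8.0 Mb, 5 were called from at least 1 viewpoint, and 289 of their 415 pairs with the 11 viewpoints were above expectation. Over all tested gene pairs, 51.2% were above expectation, and among the pairs of the 11 viewpoints 20 to 500 kb apart 64.4% were.

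**Figure D3:**
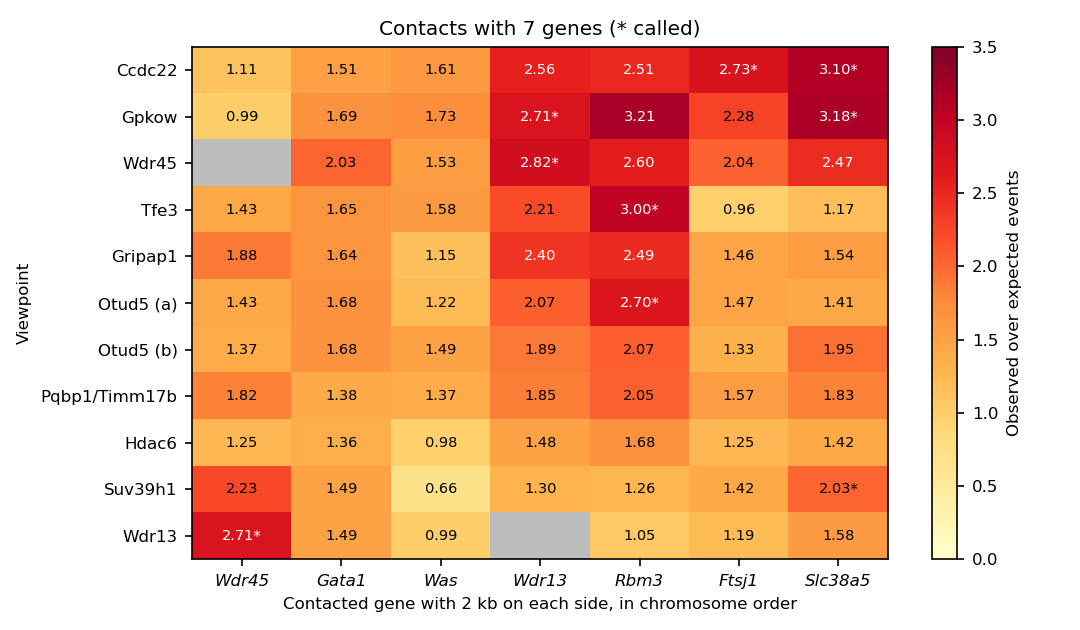
Observed over expected events at Gata1, Was and the 5 called protein-coding genes (columns, each with 2 kb on each side) for the 11 viewpoints (rows), libraries summed. Asterisks mark pairs that passed the call, and grey cells are pairs of a viewpoint with its own gene. Ratios at Wdr13, Rbm3, Ftsj1 and Slc38a5 are highest in the upper rows, where the viewpoints lie farthest to the left.

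The broad profile was shared by the 11 viewpoints: contacts above expectation filled the middle of the region and fell away at both ends. In 50 kb steps, all 11 viewpoints were below expectation before position 7100000, where the median ratio was 0.597 and 0.505, and beyond position 7900000, where it was 0.421 and 0.299. The highest step was 7700000 to 7750000, which holds Wdr13 and Rbm3, with a median of 1.71 and all 10 viewpoints measured there above 1. Around Gata1 the steps from 7500000 and from 7550000 had medians of 1.34 and 1.54, and every viewpoint measured was above 1 in both. Within them, 10 kb windows differed. That of 7540000 to 7550000, which holds the Gata1-001 start, had a median of 1.925, and those on either side 1.193 and 1.33. The window from 7570000 had 1.849. Higher medians occurred elsewhere, for instance 2.436 and 2.54 in the windows from 7700000 and 7710000. On the right, the low end coincided with the stretch of Ssxb genes, a family of similar genes: there 66.3% of fragments had 50% or more of their words found elsewhere on chromosome X, against 4.50% in the rest of the region. The part of these copies in the low counts was not tested.

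**Figure D4:**
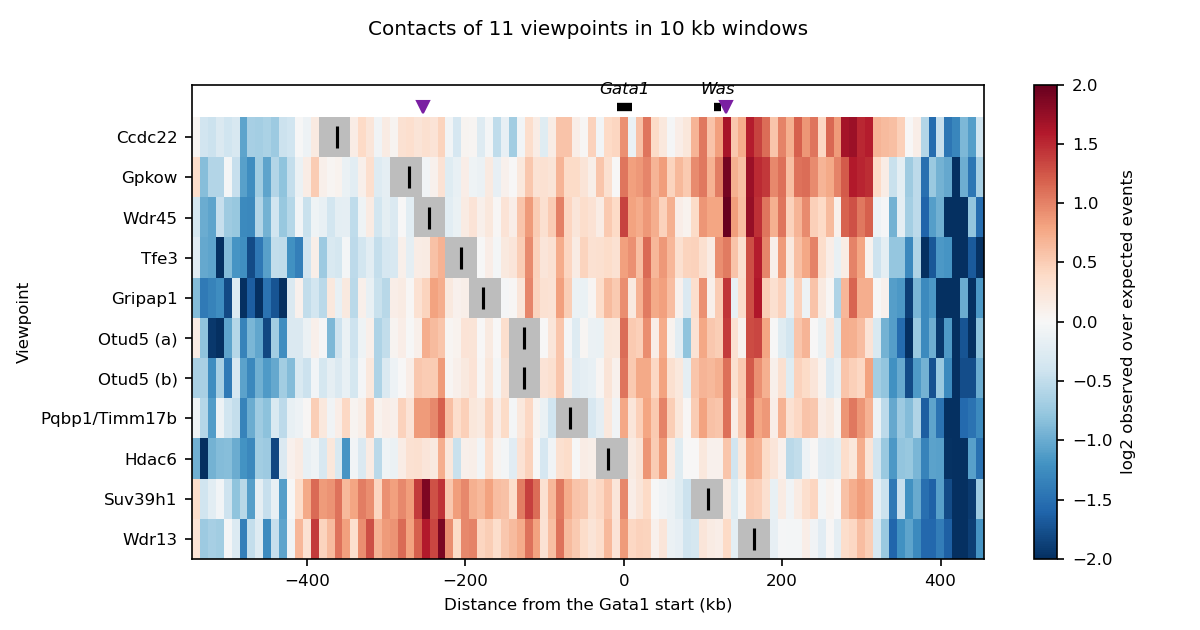
Contacts of the 11 viewpoints (rows, in chromosome order) in 10 kb windows against distance from the Gata1 start in kb. Colour is log2 of observed over expected events with the libraries summed, with the scale cut at both ends. Black ticks mark the viewpoints, grey the windows within 20 kb that were left out, and triangles the repeated stretch. Red fills the middle and blue the ends, and Suv39h1 and Wdr13 are red on the left where Ccdc22 and Gpkow are red on the right.

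Contacts of these promoters were local. Of all cis events, between 45.1% ± 7.73 (Ccdc22) and 57.2% ± 4.99 (Gripap1; SD, n = 2) fell within 7.0 to 8.0 Mb. Library a had a higher share than b and c at every viewpoint, for instance 50.6% against 39.6 and 39.7% at Ccdc22. Events from 2.5 to 500 kb made up 43.2 to 54.9% of the total, with a median of 48.5%. The median was 37.7% over all 6718 tested viewpoints and 30.7% over the 201 of chromosome X. Ccdc22, the lowest of the 11, was above 94.0% of chromosome X viewpoints and 71.5% of all viewpoints, and Tfe3, the highest, above 99.5% and 95.2%.

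Between 10 and 200 kb, events leaned slightly to the side of Gata1, by an amount that depended on the range. Ccdc22, Gpkow and Wdr45 lie more than 200 kb from Gata1, so their range did not reach it. For them the side of Gata1 is also the side of the middle of the region, where contacts were above expectation. From Tfe3, at −205.2 kb, the range ended inside the gene, short of the Gata1-001 start. Ccdc22 had 58.4% ± 2.0 of these events on the side of Gata1, where the tested fragments gave an expectation of 50.5%, and Wdr45 had 58.4% ± 0.830 against 51.3% (SD, n = 2). Hdac6 had 51.8% ± 1.20 against 46.8%. For the other 8 viewpoints, the difference from expectation ran from −0.195 percentage points at Pqbp1/Timm17b to 3.79 at Tfe3, and the median over all 11 was 2.57. That median was 8.35 points over 10 to 500 kb and 0.528 over 20 to 100 kb.

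Profiles of contact were most alike between promoters on the same side of Gata1. Across 10 kb windows, Spearman's correlation of observed over expected events had a median of 0.777 over the 54 pairs of viewpoints of different genes. It was 0.828 over the 36 pairs on the same side and 0.586 over the 18 pairs on opposite sides. These pairs also lay farther apart, and similarity fell with distance (Spearman's rho −0.894 over the 54 pairs, which share viewpoints and are not independent). Suv39h1 and Wdr13 were most alike, at 0.938 over 92 windows, followed by Gpkow and Wdr45 at 0.921. Ccdc22 and Wdr13, the outermost promoters, were least alike, at 0.315. The viewpoints of Otud5 reached 0.919 over 96 windows, measured at a single promoter.

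Among viewpoints of other genes, the best match was often, but not always, a neighbouring promoter. Ccdc22 was most like Gpkow (0.860), Tfe3 most like Wdr45 (0.910), and Gripap1 most like Otud5 viewpoint b (0.902). Pqbp1/Timm17b was also most like Otud5 viewpoint b (0.901), which had its own best match in Wdr45 (0.915), and Otud5 viewpoint a was most like Pqbp1/Timm17b (0.875). Hdac6, the promoter next to Gata1, had the lowest best match, with Gripap1 at 0.842. These are correlations across windows of the same libraries, given as a description. They were not corrected for depth, which ran from 8160 events at Gripap1 to 93847 at Pqbp1/Timm17b. The part of depth in the order of matches was not tested.

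**Figure D5:**
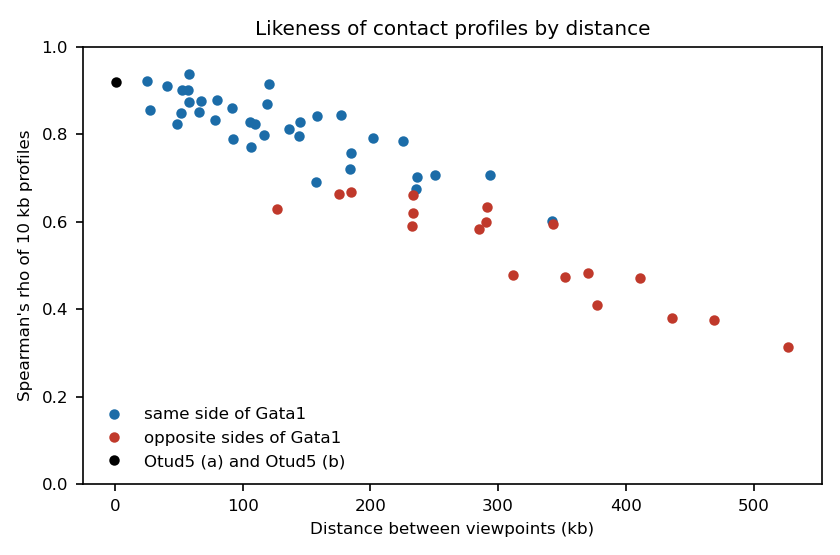
Spearman's correlation of 10 kb contact profiles between viewpoints against the distance between them in kb. Each point is a pair: 36 on the same side of Gata1, 18 on opposite sides, and the pair of Otud5 viewpoints. Correlation falls with distance, from 0.938 to 0.315 over pairs of different genes.

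Contacts between the promoters themselves varied widely. Targeted fragments have no values in the table, so each pair was read at the fragments 1 to 2 places from the other viewpoint. The median ratio over the 108 directions of 54 pairs was 1.16, with 59 above expectation and a range from 0.109 to 3.55. The highest was Gpkow at the fragments beside Wdr13, with 12, 21 and 18 events. The reverse direction of that pair had 3, 2 and 6 events and a ratio of 1.65. In 17 of 54 pairs both directions were above expectation, and the 2 directions had a Spearman correlation of 0.233 over the 54 pairs. The lowest ratio, at Ccdc22 from Tfe3, rested on 1 event.

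Close to Gata1, the fragments with the highest summed contacts outside exons lay upstream of it. They are shown because they are the parts of the untargeted Gata1 surroundings that the promoters reached most for their distance, among 158 fragments within 40 kb of the annotated gene that overlap no annotated exon. All 3 were long, at 1160 to 1391 bp, where the median fragment within 40 kb had 358 bp. For each, 200 bases are printed on the plus strand of mm9, with GATA motifs (GATAA or GATAG after an A or a T, on either strand) and the core of the CTCF motif (on either strand) in capitals. The distance given is that of the middle of the whole fragment.
33.6 kb upstream of the Gata1 start, chrX:7578392-7578591: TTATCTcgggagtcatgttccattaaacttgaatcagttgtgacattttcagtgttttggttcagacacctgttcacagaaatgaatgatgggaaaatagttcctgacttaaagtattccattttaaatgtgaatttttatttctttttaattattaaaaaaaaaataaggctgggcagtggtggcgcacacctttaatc
34.8 kb upstream of the Gata1 start, chrX:7579714-7579913: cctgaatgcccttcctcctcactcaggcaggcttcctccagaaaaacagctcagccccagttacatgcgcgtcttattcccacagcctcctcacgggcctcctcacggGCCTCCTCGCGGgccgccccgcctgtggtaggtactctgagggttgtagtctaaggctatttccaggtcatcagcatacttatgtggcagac
45.6 kb upstream of the Gata1 start in an intron of Glod5, chrX:7590465-7590664: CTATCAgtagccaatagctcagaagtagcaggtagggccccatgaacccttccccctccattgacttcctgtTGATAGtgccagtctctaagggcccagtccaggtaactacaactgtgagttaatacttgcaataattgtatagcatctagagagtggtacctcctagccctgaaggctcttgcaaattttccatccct
The first lies in the fragment chrX:7578056-7579233, which had 61, 77 and 83 events over the 11 viewpoints and a ratio of 2.98. The next, adjoining it at chrX:7579234-7580393, had 49, 81 and 82 events and a ratio of 2.92. The third, at chrX:7589933-7591323, had 57, 57 and 80 events and a ratio of 2.68, close to the 2.65 of the next fragment in the order. When the expectation also took fragment length into account, the ratios were 1.83, 1.80 and 1.66, against a median of 1.26 over all 229 fragments within 40 kb. Windows of the same lengths held a GATA motif in 88.1 to 93.3% of cases, and the CTCF core, found in the fragment at 34.8 kb on the minus strand, occurred in 3.60% of windows of that length. A match of letters is not a measurement of binding.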

How the data were processed

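Ligation events between promoter viewpoints and DpnII fragments were measured by NuTi Capture-C in 3 libraries. The authors trimmed the reads with Trim Galore, aligned them with Bowtie to mm9, removed PCR duplicates and counted unique ligation events with the CCseqBasic programs, and scaled them with CaptureCompare. The versions of Trim Galore and Bowtie are not given in the sources used here. The deposited signal values are events per 100000 cis events of the same viewpoint and library, in 1 column per library. The columns carry no sample names and are called a, b and c in their order.

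Within a viewpoint and library, deposited signal values were multiples of the smallest one, which was read as 1 event: 100% of values in each library were whole numbers of events to within 0.01. The design treated the table as a signal from which events are worked back, and the count test was run on these events. Library a held 18230099 cis events, library b 34428035 and library c 34233560. Expected counts came from 50 bins of distance from 2.5 kb to 1 Mb, times the total of the viewpoint in that range, over 6718 viewpoints with at least 1000 cis events. Pairs were tested with an upper-tail negative binomial model whose dispersion was taken by moments in each bin, after the top 0.1% of standardised counts had been set aside. Adjustment was by Benjamini and Hochberg's procedure across every pair in the table, and fragments, 5 kb windows and genes with 2 kb on each side were tested in this way. A call needed an adjusted p under 0.05 and a count above expectation in each library. Targeted fragments were left out. The program peaky, which the authors used for calling, was not run. Genes were those of GENCODE vM1 on mm9.

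Besides the viewpoints, Gata1 and Was, protein-coding genes overlapping 7.0 to 8.0 Mb were named if called from at least 1 viewpoint. Sequences near Gata1 were the 3 fragments with the highest summed ratio within 40 kb and outside exons. Copied sequence was found as words of 30 bases that occur elsewhere on chromosome X, and aligned with Biopython 1.88. Calculations used Python 3.11.15, numpy 2.4.6, scipy 1.17.1 and pandas 2.3.3, and the test was tried on simulated counts. The promoters, lists and tests were chosen with earlier results of these data known. Alternatives changed the dispersion, the expectation, window size, gene flank, least depth and the libraries used.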

Additional observations from a re-analysis of the deposited data

How the results depend on the processing

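The counts of calls depended on how the dispersion and the expectation were set. Against 5 called fragments, 3 windows and 13 gene pairs, leaving no counts out of the dispersion gave 1, 1 and 2. Over all viewpoints, 981, 3172 and 9661 were called in the main setting and 222, 557 and 3232 in this one. Leaving out the highest 1% gave 9, 5 and 25 (3153, 7918 and 15305 over all viewpoints). Poisson counts, which allow no spread beyond counting, gave 1303 of 50230 fragments, 565 of 4353 windows and 268 of 947 gene pairs. Over all viewpoints they gave 172254 of 28839706, 145904 of 2660494 and 65383 of 348535. Each of these shares was larger for the 11 viewpoints, whereas in the main setting the shares of windows and gene pairs were smaller for them. These shares were not matched for depth: the 11 viewpoints had 8160 to 93847 events, whereas all viewpoints with at least 1000 were tested. The part of depth in these differences was not tested. An expectation by distance and fragment length gave 8, 1 and 8 (2172, 2584 and 9123 over all viewpoints). Windows of 10 kb gave 1 of 2189 (2116 of 1337744 over all viewpoints). An expectation from chromosome X viewpoints gave 26 of 947 gene pairs, a smaller share than the 507 of 10836 over all chromosome X viewpoints. The alternatives for repeated sequence, chosen after the data were seen, lowered the counts of fragments and windows: without fragments overlapping the repeated stretch, 0 and 0 were left, the first by construction, and without fragments that had 50% or more of their words elsewhere on chromosome X, 1 and 0. That 1 fragment lay below this share, so the alternative could not remove it. Over all viewpoints, 976 and 3170 were left in the first case and 980 and 3216 in the second. Leaving out each library in turn gave 5 to 5 fragments, 2 to 3 windows and 9 to 11 gene pairs. Over all viewpoints it gave 633 to 748, 1890 to 2630 and 6864 to 8650. Only the pair of Suv39h1 and Gm14720 was called under all 13 alternatives for genes, and those lost most often, each under 5, were Rbm3 from Tfe3, Wdr45 from Wdr13 and Gm6787 from Gpkow. Rbm3 from Otud5 viewpoint a was lost under 4.

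The median ratio at Gata1, 1.54, was 1.34 with fragment length in the expectation, 2.10 with all cis events as the scale, 1.44 with 10 kb on each side and 1.61 with libraries b and c as separate samples, and 1.55 to 1.61 with a library left out. At Was, 1.39 became 1.56, 1.71 and 1.72, the last with the right copy of the repeated stretch inside the interval, and 1.36 to 1.40 with a library left out. The median share of events in 7.0 to 8.0 Mb, 50.1%, was 91.7% of the events from 2.5 kb to 1 Mb, and 46.4 to 50.2% with a library left out. The median lean to the side of Gata1, 2.57 percentage points, was 8.35 over 10 to 500 kb and 0.528 over 20 to 100 kb, and 2.54 to 2.63 with a library left out. The median similarity of profiles, 0.777, was 0.705 in 5 kb windows, 0.724 without fragments with shared words, and 0.733 to 0.751 with a library left out. Apart from changes of denominator or scale, which alter a value by definition, the cause of these shifts was not tested. The median ratio of contacts between promoters, 1.16, was 1.34 over fragments 1 to 5 places away and 1.09 to 1.19 with a library left out. No paired analysis was possible because there is 1 group. Depth limits single fragments most: at the far copy of the repeated stretch, distance gave an expectation of 1.24 events from Tfe3 and 3.82 from Wdr45.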
